A study of Mus musculus with 6 samples.

Results

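The mitochondrial carriers of the Slc25 family were described in kidneys of wild-type (WT) C57Bl/6 mice, collected 28 days after ischaemia-reperfusion injury, in which blood flow to the kidney is interrupted and restored. Members were all protein-coding genes of the count table whose symbol is Slc25a followed by a number, which gave 47 of 35275 genes, on 19 chromosomes. Of these, 43 had enough counts for a test, among 14883 genes tested in all. The severe group (3 libraries, numbered 13, 14 and 15) had 35 min of ischaemia and the mild group (3 libraries, numbered 7, 8 and 9) had 20 min. Both groups were of the same genotype and both were injured. No uninjured kidney was analysed here, and a difference below always sets long against short ischaemia. The labels give neither age nor sex. Nor do they state whether each kidney is from its own mouse, and p-values therefore cover only the variation among these 6 samples, which may be technical. The study concerns how acute kidney injury passes into chronic kidney disease.

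Slc25 proteins sit mostly in the inner mitochondrial membrane, which small polar molecules do not cross by themselves. Most of them exchange a substrate of the matrix for one of the intermembrane space, and so link cytosolic metabolism to the citric acid cycle, oxidative phosphorylation, urea synthesis and the making of haem and cofactors. The proximal tubule, which makes up most of the renal cortex, is rich in mitochondria and draws most of its energy from oxidising fatty acids and other substrates that these carriers help to move.

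The libraries held between 15240491 and 17730967 gene counts. Levels are given as CPM, counts scaled to the library size (1e6 counts) after TMM adjustment, always in the order of libraries 13, 14 and 15 for severe kidneys and 7, 8 and 9 for mild kidneys. The tubule marker list checked the tissue: its 10 genes summed to 17022, 9453 and 15369 CPM in severe kidneys, against 18636, 19297 and 19841 CPM in mild kidneys, and all 10 had negative fold changes. Severe library 14 stood apart in this list and in several others described below. Differences are log2 fold changes of severe over mild with their standard error (SE), from edgeR's quasi-likelihood F test with Benjamini-Hochberg adjustment over all 14883 genes. A gene is called when its adjusted p is under 0.05.

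Most Slc25 genes were lower in severe than in mild kidneys, by small amounts that did not pass the test. The fold change was negative for 36 of the 43 members and positive for 7, whereas 49.9% of all tested genes were negative. The median over the members was -0.24 on the log2 scale, against 0.000194 over all tested genes. In 21 members all 3 severe libraries lay below all 3 mild libraries, and in 1, Slc25a24, they all lay above. Over all tested genes 16.1% lay wholly below and 17.9% wholly above.

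No member was called by edgeR: 0 were higher and 0 lower, and over all tested genes 0.0134% were called in either direction. At an unadjusted p under 0.05, 10 members were lower and 1 was higher, where the background was 7.89% lower and 15.8% higher over all tested genes. DESeq2 called 1 member higher, Slc25a24, and 0 lower, against 7.19% and 0.993% of the genes it adjusted. Limma-voom called 0 members and 0.0134% of all genes. Limma-voom with sample quality weights, which gives less weight to libraries that scatter more, called 1 member higher and 25 lower, against 18.2% and 15.7% of all genes.

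Single libraries moved these counts. Without severe library 13, edgeR called 1 member higher and 14 lower, where 13.8% and 7.74% of all genes were called. The counts wholly below and at an unadjusted p under 0.05 lower were then 32 and 26, against 26.8% and 17.3% of all genes. Without severe library 14, edgeR called 1 member higher (Slc25a24) and 1 lower (Slc25a34), against 2.4% and 0.931% of all genes, and the median of the members was -0.13. The count lower at an unadjusted p under 0.05 was then 14, against 9% of all genes. It was 6 without severe library 15 (5.16% of all genes), 7 without mild library 7 (2.88%), 2 without mild library 8 (3%) and 4 without mild library 9 (3.05%). For 30 of the 43 members the log2 fold change without severe library 14 was smaller by more than 1.5 times or reversed, among them Slc25a25 (-0.31), Slc25a10 (-0.22), Slc25a5 (-0.17) and Slc25a39 (-0.13), while 36 were still negative. Without severe library 13 it was larger by more than 1.5 times for 10 members. With library totals in place of TMM factors the median of all tested genes was 0.17 and that of the members -0.08, so that the members stood 0.25 below all genes, against 0.24 with TMM. That scaling left 10 members wholly below and 3 lower at an unadjusted p under 0.05, where the background was 6.61% and 2.43%.

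**Figure D1:**
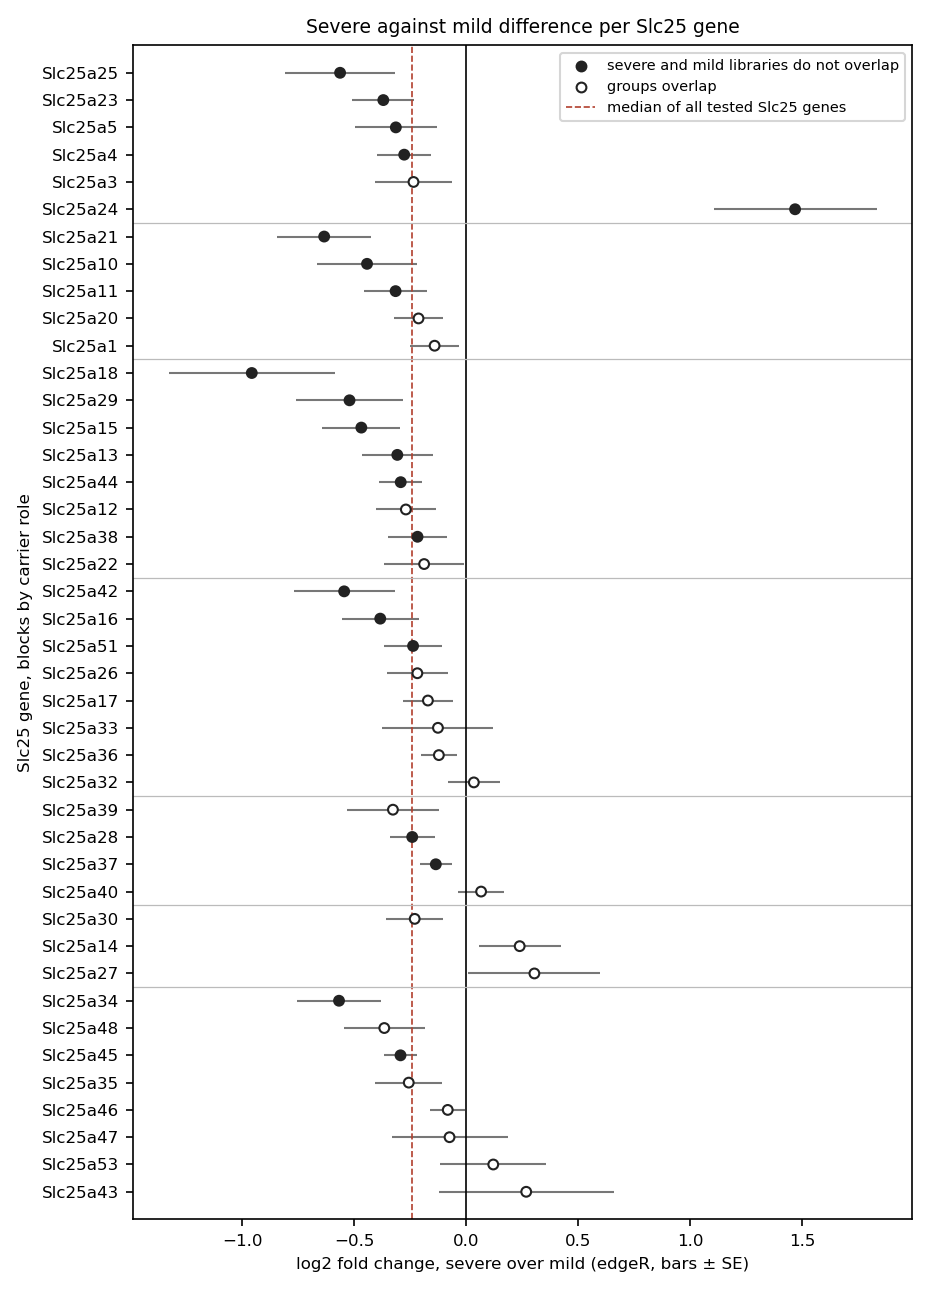
Log2 fold change of severe over mild kidneys (x axis) with its SE for 42 Slc25 genes (y axis), in blocks by carrier role from top to bottom: adenine nucleotide and phosphate, carboxylates and carnitine, amino acids, cofactors and nucleotides, iron and glutathione, uncoupling-protein-like, and other. Filled points mark genes whose severe and mild libraries do not overlap. Slc25a24 stands alone at 1.47, while 35 of the plotted genes lie left of 0 and the dashed line marks the median of all tested members, -0.24.

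The differences followed the libraries closely. Severe library 14 held the lowest level of 33 of the 43 members, or 76.7%, where it was the lowest library for 34.5% of all tested genes. Library 14 was also the lowest for 19 of the 21 members that lay wholly below the mild libraries. Such members have their lowest level in a severe library by definition, so the 34.5% is no background for this count. The median deviation of the members from the mild mean was -0.05, -0.53 and -0.23 on the log2 scale in severe libraries 13, 14 and 15, and -0.03, 0.02 and 0.02 in the mild libraries. Within a group, the median SD of a member's log2 level was 0.266 in severe and 0.0810 in mild kidneys, and 35 of 43 members, or 81.4%, varied more among the severe libraries. Over all tested genes these SDs were 0.193 in severe and 0.103 in mild kidneys, and 73.0% varied more among the severe libraries.

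**Figure D2:**
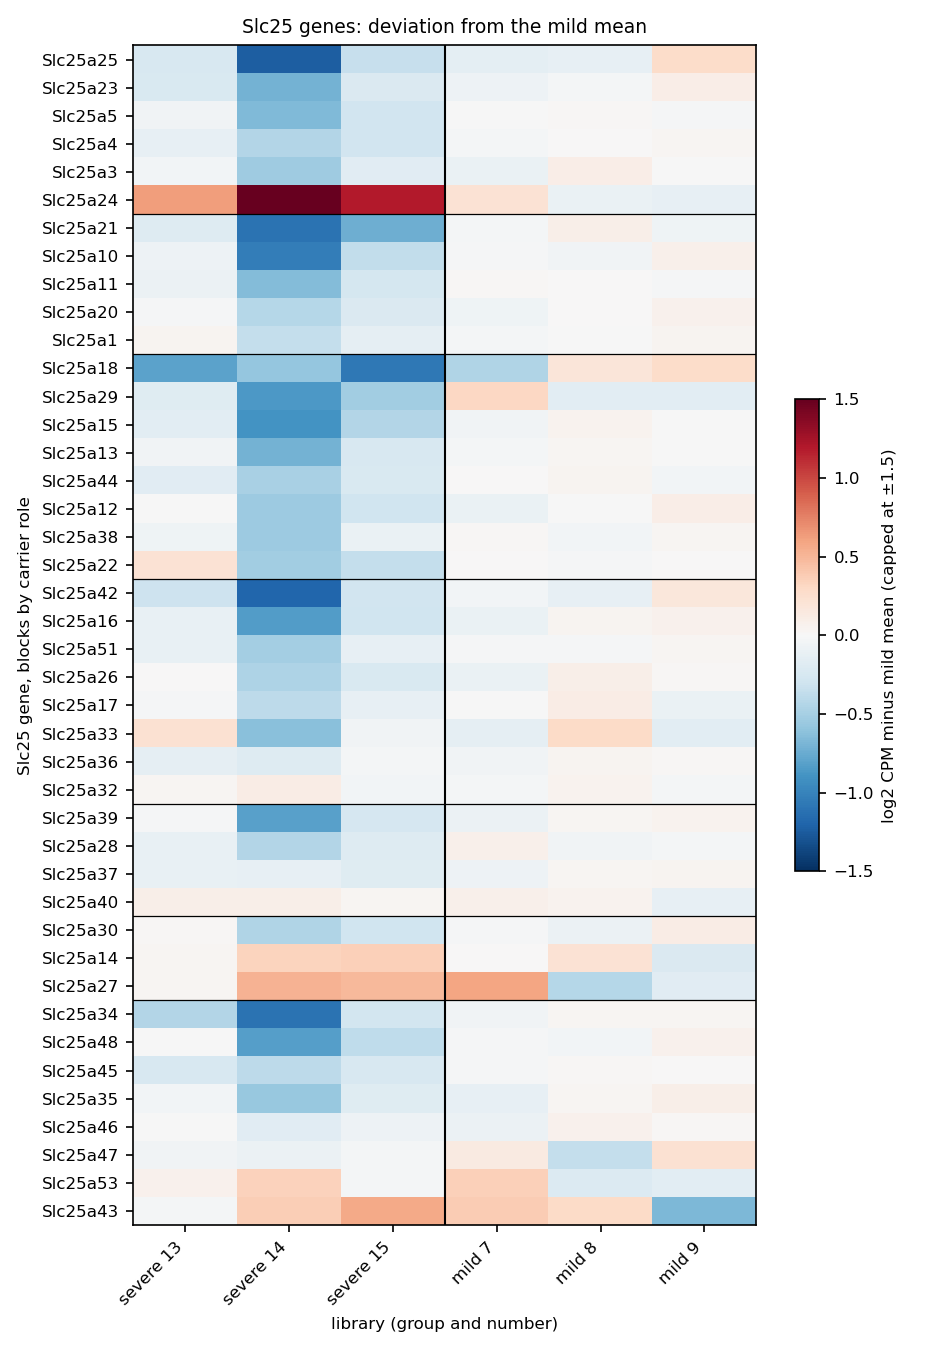
Deviation of 42 Slc25 genes (y axis, blocks by role as in the plot of fold changes) from its mild mean in each library (x axis, 3 severe then 3 mild), in log2 CPM, with colours capped at 1.5 either way. The column of severe library 14 is the darkest blue, with a median of -0.53, and Slc25a24 has the deepest red in each severe library, beyond the cap in library 14.

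Markers of injured tubule, fibroblast and macrophage moved opposite to the summed carriers, though 7 of the 43 tested members also had positive fold changes. Summed markers of injured tubule were 2467, 9042 and 4757 CPM in severe kidneys, against 1864, 1769 and 2357 CPM in mild kidneys. Of these markers 6 of 6 had positive fold changes, as had 7450 of all 14883 tested genes, and 3 of 6 lay wholly above the mild libraries. Fibroblast markers summed to 862, 2915 and 1515 CPM in severe kidneys, against 515, 476 and 403 CPM in mild kidneys, with 6 of 6 wholly above the mild libraries. Of the 7 tested macrophage markers 6 lay wholly above, with sums of 502, 951 and 598 CPM in severe kidneys and 261, 302 and 316 CPM in mild kidneys. Over all tested genes 17.9% lay wholly above. The order of the severe libraries was the same in each of these lists, 14 highest and 13 lowest, and it was the reverse in the summed carriers and the tubule markers. Not all lists rose in that order. Podocyte markers summed to 325, 247 and 324 CPM in severe kidneys, against 335, 327 and 336 CPM in mild kidneys. T and B cell markers summed to 5.70, 10.1 and 11.4 CPM in severe kidneys, against 4.07, 6.89 and 8.37 CPM in mild kidneys. Erythroid markers were highest in library 13. The carriers summed to 5713, 3911 and 5081 CPM in severe kidneys, against 5828, 6099 and 6119 CPM in mild kidneys. In whole kidney, a smaller share of RNA from tubule cells and less carrier RNA per tubule cell cannot be told apart. What part these markers have in the carrier values was not tested.

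**Figure D3:**
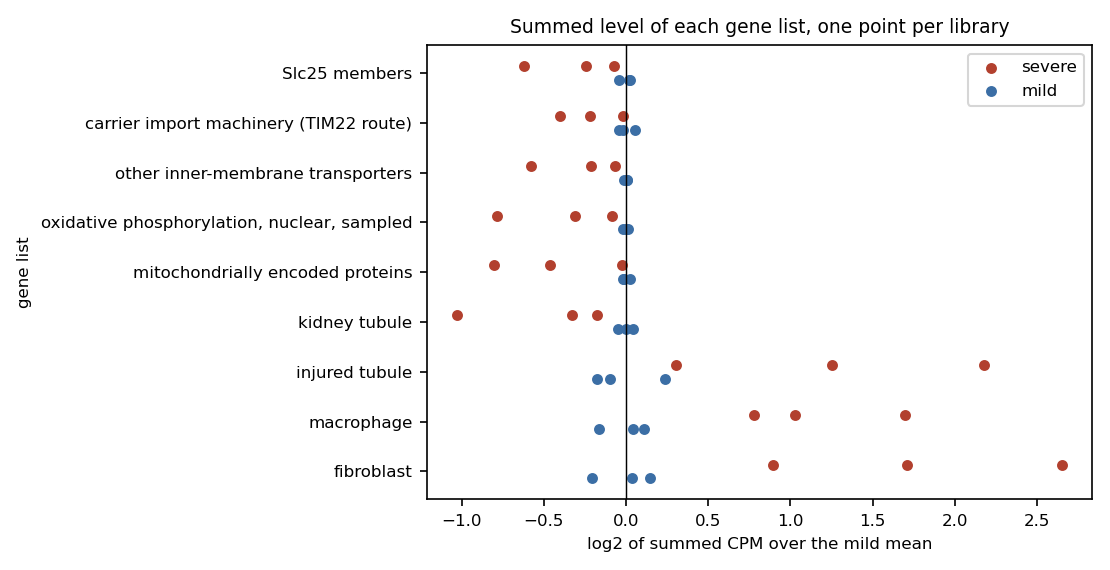
Summed CPM of each gene list in each library, as log2 over the mild mean (x axis), with 1 point per library and the lists on the y axis. Carriers, import machinery, respiratory chain and tubule markers run leftwards in severe kidneys, farthest in library 14, whereas injured tubule, macrophage and fibroblast markers run rightwards.

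Levels between genes were compared per kilobase of the gene length given in the table. The most abundant carrier was Slc25a5, the main adenine nucleotide translocase of many tissues, which swaps ADP for ATP across the inner membrane. It stood at 734 ± 151 CPM per kb in severe and 912 ± 12.9 in mild kidneys (SD, n = 3 each, as for every mean here). Slc25a39, needed for glutathione import, followed with 279 ± 74.9 CPM per kb in severe and 349.8 ± 18.5 in mild kidneys. Then came the phosphate carrier Slc25a3 with 209 ± 35.8 in severe and 245 ± 16.4 in mild kidneys. Slc25a4 and the dicarboxylate carrier Slc25a10 came next with 165 ± 17.8 and 146 ± 46.2 CPM per kb in severe kidneys, against 199 ± 4.06 and 198 ± 9.92 in mild kidneys, and these neighbours did not differ beyond their spread. Slc25a11, Slc25a1 and Slc25a17 completed the 8 highest. The rank of Slc25a3 depends on its long table length of 4039 bases, where Slc25a5 has 1240 bases. Slc25a18 had the lowest level among the tested members.

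**Figure D4:**
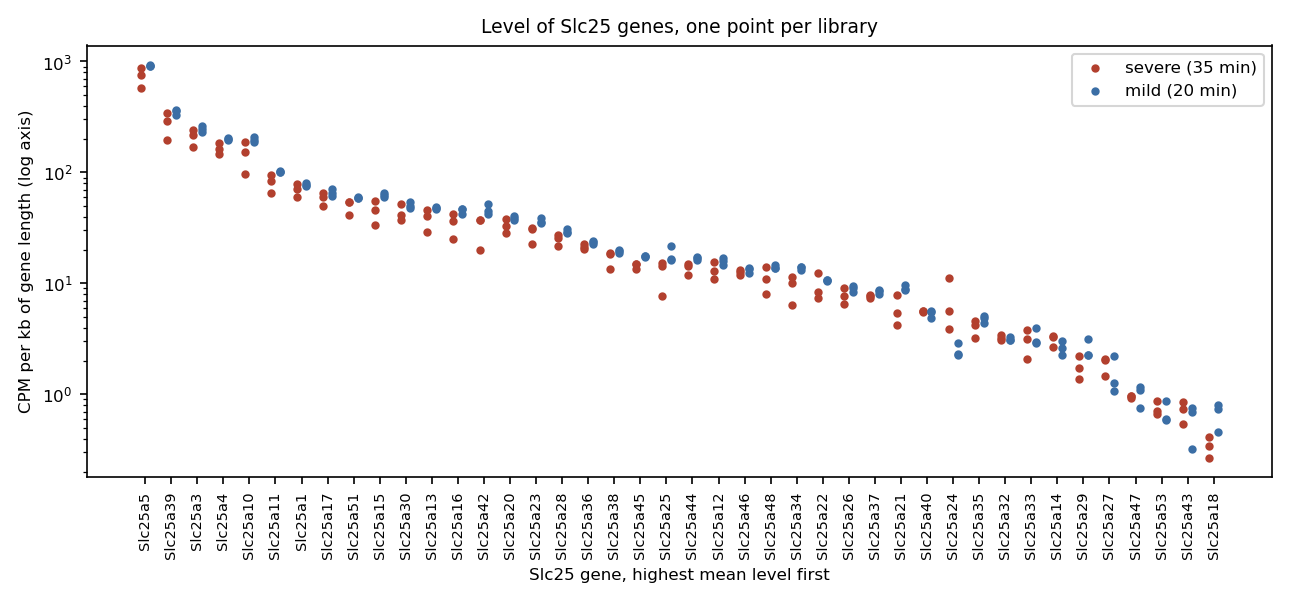
Level of 42 Slc25 genes in CPM per kb of gene length (y axis, log scale), genes ordered by mean level on the x axis, with 1 point per library and severe left of mild within each gene. Slc25a5 is the highest, at 734 CPM per kb on average in severe and 912 in mild kidneys, and Slc25a24 is the gene whose severe points all stand above the mild ones.

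Among the carriers of adenine nucleotides and phosphate, 6 of 9 were tested, 5 of them with negative fold changes (49.9% of all tested genes). The ATP-Mg/phosphate carriers Slc25a24, Slc25a23 and Slc25a25 exchange ATP-Mg for phosphate when cytosolic calcium rises, and so set the size of the adenine nucleotide pool in the matrix. They had the widest range within any role, so the 250 bases before the first listed transcript start of each are shown, from RefSeq on GRCm38.p6. Capitals mark GC boxes (GGGCGG) and CCAAT boxes on either strand. The windows are chr3:109122899-109123148 on the plus strand for Slc25a24, chr17:57059864-57060113 on the minus strand for Slc25a23 and chr2:32451471-32451720 on the minus strand for Slc25a25.
Slc25a24: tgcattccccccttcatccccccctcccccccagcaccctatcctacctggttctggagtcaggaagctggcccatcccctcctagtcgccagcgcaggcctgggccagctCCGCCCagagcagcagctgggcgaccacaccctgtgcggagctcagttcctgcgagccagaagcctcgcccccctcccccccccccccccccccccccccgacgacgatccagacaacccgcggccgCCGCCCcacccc
Slc25a23: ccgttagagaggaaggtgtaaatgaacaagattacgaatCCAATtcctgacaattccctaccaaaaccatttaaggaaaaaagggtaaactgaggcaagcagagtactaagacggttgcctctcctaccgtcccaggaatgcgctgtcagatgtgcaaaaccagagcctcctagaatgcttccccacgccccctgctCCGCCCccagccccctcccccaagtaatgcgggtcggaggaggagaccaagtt
Slc25a25: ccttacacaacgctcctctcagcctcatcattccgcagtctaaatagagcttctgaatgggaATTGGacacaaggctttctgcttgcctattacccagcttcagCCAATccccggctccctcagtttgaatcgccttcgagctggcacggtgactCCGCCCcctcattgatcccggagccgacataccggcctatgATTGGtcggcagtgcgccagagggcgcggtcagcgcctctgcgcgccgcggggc
The Slc25a24 window held 2 GC boxes, no CCAAT box and 72.8% G and C. The Slc25a23 window held 1 GC box and 1 CCAAT box at 52.4% G and C, and that of Slc25a25 held 1 GC box and 3 CCAAT boxes at 60% G and C. A GC box was found in 32.74% and a CCAAT box in 33.85% of all 32851 windows of this length. These matches are letters in a window and were not tied to any difference between the groups.

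Slc25a24 (ENSMUSG00000040322, chr3:109123149-109168457, plus strand, mm10) had 13.2, 38.1 and 19.5 CPM in severe kidneys, against 9.93, 7.90 and 7.82 CPM in mild kidneys. All severe libraries were above all mild ones, and library 14 was the highest by far. The summed markers of injured tubule, fibroblast and macrophage had this same order of severe libraries, 14 highest and 13 lowest. What part those cells have in the Slc25a24 values was not tested. The means were 23.6 ± 12.97 CPM in severe and 8.55 ± 1.19 CPM in mild kidneys, from 114 to 678 counts per library. The log2 fold change was 1.47 ± 0.36 and the adjusted p from edgeR was 0.0996, and over its 15 alternatives the adjusted p ran from 0.00183 to 0.322. It was called in 4 of them, DESeq2 (adjusted p = 0.00183), quality weights, without severe library 13 and without severe library 14. Without library 14 its log2 fold change was 0.93 and edgeR's adjusted p was 0.0269.

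Slc25a23 (ENSMUSG00000046329, chr17:57043711-57059863, minus strand, mm10) had 105, 75.4 and 106 CPM in severe kidneys, against 117, 121 and 132 CPM in mild kidneys. Its groups did not overlap in the opposite direction to Slc25a24, at -0.37 ± 0.14 in log2 fold change (edgeR adjusted p = 0.172). Its span shares 759 bases with that of Crb3 on the other strand, whose reads cannot be told apart from its own where strand is unknown. Slc25a25 (ENSMUSG00000026819, chr2:32414487-32451445, minus strand, mm10) had 54.0, 27.0 and 50.2 CPM in severe kidneys, against 57.8, 58.7 and 77.2 CPM in mild kidneys. It too lay wholly below, at -0.56 ± 0.25 (edgeR adjusted p = 0.214). Within each library, the ratio of Slc25a24 to Slc25a23 per kb was 0.124, 0.497 and 0.181 in severe kidneys, against 0.0840, 0.0649 and 0.0590 in mild kidneys. The ratio was 1.71 higher in severe kidneys on the log2 scale, or 3.26-fold. The exact two-sided permutation p was 0.1, the smallest that 3 against 3 libraries allow (adjusted over 10 ratios, 0.667), and the difference was 1.13 without severe library 14. Because Slc25a24 lay wholly above and Slc25a23 wholly below, their ratio had to separate the groups, so this p adds nothing to the values of each gene.

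**Figure D5:**
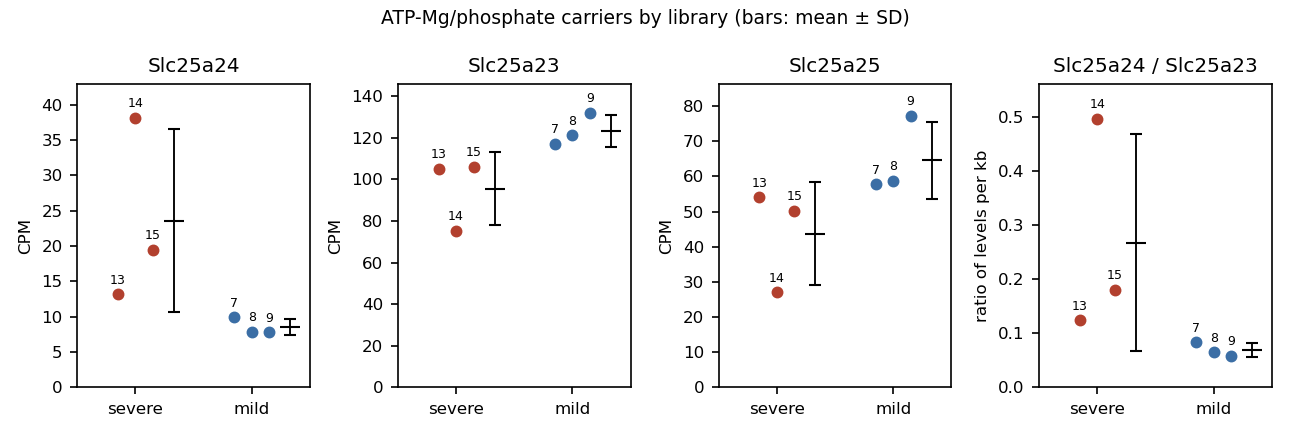
CPM of Slc25a24, Slc25a23 and Slc25a25 and the ratio of Slc25a24 to Slc25a23 per kb (y axes) in the 3 severe and 3 mild libraries (x axis, library numbers above the points), with mean ± SD beside each group. Slc25a24 averages 23.6 CPM in severe and 8.55 CPM in mild kidneys, whereas Slc25a23 and Slc25a25 are lower in severe kidneys, and library 14 is the extreme severe point in every panel.

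The adenine nucleotide translocases and the phosphate carrier tested in this role had larger levels and smaller differences. Slc25a5 had 1087, 714 and 928 CPM in severe kidneys, against 1125, 1149 and 1119 CPM in mild kidneys. Its groups did not overlap, at -0.31 ± 0.18 (edgeR adjusted p = 0.306). Slc25a4, the adenine nucleotide translocase known from heart and muscle, had 352, 284 and 315 CPM in severe kidneys, against 376, 384 and 392 CPM in mild kidneys. It was also wholly below, at -0.28 ± 0.12 (edgeR adjusted p = 0.211). Slc25a3, which brings in the phosphate that ATP synthase uses, had 966, 683 and 878 CPM in severe kidneys, against 926, 1059 and 989 CPM in mild kidneys. Its groups overlapped through library 13, at -0.24 ± 0.17 (edgeR adjusted p = 0.401). The ratio of Slc25a4 to Slc25a5 per kb was 0.209, 0.256 and 0.219 in severe kidneys, against 0.215, 0.215 and 0.225 in mild kidneys, and these overlapped (difference 0.05 on the log2 scale, exact permutation p = 0.8). A pseudogene of Slc25a5 was listed apart from it with 17 counts in all, and reads of the pair could be split between them.

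All 5 carriers of carboxylates and carnitine had negative fold changes, with a median of -0.32 on the log2 scale, and 3 lay wholly below. Over all tested genes 49.9% were negative and 16.1% lay wholly below. Slc25a21, which carries oxoadipate and related acids of lysine breakdown, had 20.6, 10.9 and 14.1 CPM in severe kidneys, against 23.2, 25.2 and 22.6 CPM in mild kidneys. With -0.63 ± 0.21 it was the lowest of the role, all severe libraries below all mild ones (edgeR adjusted p = 0.144). Slc25a10, which exchanges malate and succinate for phosphate, had 379, 194 and 310.0 CPM in severe kidneys, against 394, 384 and 423 CPM in mild kidneys. The groups did not overlap and library 14 lay far below the other severe libraries, at -0.44 ± 0.22 (edgeR adjusted p = 0.258). Slc25a11, the oxoglutarate-malate exchanger of the malate-aspartate shuttle, had 163, 111 and 144 CPM in severe kidneys, against 175, 174 and 171 CPM in mild kidneys. It lay wholly below, at -0.32 ± 0.14 (edgeR adjusted p = 0.218). The citrate carrier Slc25a1, which exports citrate for lipid synthesis, had 133, 102 and 119 CPM in severe kidneys, against 128, 129 and 134 CPM in mild kidneys. The carnitine-acylcarnitine carrier Slc25a20, through which fatty acids enter for oxidation, had 68.0, 50.9 and 59.1 CPM in severe kidneys, against 66.0, 68.7 and 71.6 CPM in mild kidneys. Both overlapped through library 13, at -0.14 ± 0.11 for Slc25a1 and -0.21 ± 0.11 for Slc25a20 (edgeR adjusted p = 0.429 and 0.263).

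All 8 tested amino acid carriers had negative fold changes, with a median of -0.30 on the log2 scale, and 6 lay wholly below. The shares of all tested genes were 49.9% negative and 16.1% wholly below. Slc25a15, the ornithine carrier, had 193, 115 and 158 CPM in severe kidneys, against 207, 223 and 214 CPM in mild kidneys. The groups did not overlap, at -0.47 ± 0.17 (edgeR adjusted p = 0.172). Slc25a44, a carrier of branched-chain amino acids, had 53.0, 42.5 and 50.8 CPM in severe kidneys, against 60.2, 61.3 and 57.9 CPM in mild kidneys. It too lay wholly below, at -0.29 ± 0.10 (edgeR adjusted p = 0.142). The aspartate-glutamate carriers are the other inner-membrane step of the malate-aspartate shuttle. Slc25a13 (citrin, the form of liver) had 145, 91.4 and 127 CPM in severe kidneys, against 147, 153 and 149 CPM in mild kidneys. Slc25a12 (aralar, the form of brain and muscle) had 99.8, 69.0 and 81.8 CPM in severe kidneys, against 93.7, 100.3 and 108 CPM in mild kidneys. Slc25a13 lay wholly below at -0.31 ± 0.16 and Slc25a12 overlapped at -0.27 ± 0.14 (edgeR adjusted p = 0.261 and 0.254).

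The ratio of Slc25a13 to Slc25a12 per kb was 2.95, 2.69 and 3.17 in severe kidneys, against 3.20, 3.10 and 2.81 in mild kidneys, and these overlapped (exact permutation p = 0.6). Of the glutamate carriers, Slc25a22 had 40.6, 24.2 and 27.2 CPM in severe kidneys, against 35.2, 34.6 and 35.0 CPM in mild kidneys. Its severe library 13 was the highest of all and its library 14 the lowest. Slc25a18 had 0.465, 0.563 and 0.369 CPM in severe kidneys, against 0.620, 1.02 and 1.10 CPM in mild kidneys. It lay wholly below at -0.96 ± 0.37 (edgeR adjusted p = 0.183), on 66 counts over all 6 libraries, and DESeq2 gave it no adjusted p. The basic amino acid carrier Slc25a29, at 3.50 ± 0.832 CPM in severe and 5.03 ± 1.01 CPM in mild kidneys, and Slc25a38, which brings in glycine for haem synthesis, also lay wholly below, at -0.52 ± 0.24 and -0.22 ± 0.13.

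Of the 9 tested carriers of cofactors and nucleotides 8 had negative fold changes, with a median of -0.22 on the log2 scale. Of the same 9, 4 lay wholly below (49.9% negative and 16.1% wholly below among all tested genes). Slc25a42, a carrier of coenzyme A, had 136, 73.9 and 138 CPM in severe kidneys, against 163, 155 and 189 CPM in mild kidneys. All severe libraries lay below, library 14 far below the other severe ones, at -0.54 ± 0.23 (edgeR adjusted p = 0.199). Slc25a16, linked to coenzyme A, averaged 109 ± 26.6 CPM in severe and 142 ± 8.65 CPM in mild kidneys and lay wholly below, at -0.38 ± 0.17 (edgeR adjusted p = 0.220). The NAD carrier Slc25a51 had 243, 185 and 242 CPM in severe kidneys, against 260.4, 259 and 269 CPM in mild kidneys. It was wholly below by a smaller margin, at -0.24 ± 0.13 (edgeR adjusted p = 0.282).

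Slc25a17, which serves peroxisomes rather than mitochondria, had 108, 83.2 and 99.8 CPM in severe kidneys, against 109, 117 and 102 CPM in mild kidneys, with overlap, at -0.17 ± 0.11 (edgeR adjusted p = 0.358). Slc25a26, the S-adenosylmethionine carrier, stood at -0.22 ± 0.14 and Slc25a32, linked to folate and flavin, at 0.03 ± 0.12, both with overlap. The pyrimidine nucleotide carriers were Slc25a36, with 110.4, 106 and 119 CPM in severe kidneys against 117, 125 and 123 CPM in mild kidneys, and Slc25a33, with 7.21, 3.94 and 5.90 CPM in severe kidneys against 5.58, 7.49 and 5.49 CPM in mild kidneys. Both overlapped, at -0.12 ± 0.08 and -0.13 ± 0.25, and the sign of each turned with library totals (0.045 for Slc25a36 and 0.022 for Slc25a33).

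Of the 4 carriers of iron and glutathione, 3 had negative fold changes (49.9% of all tested genes). The mitoferrins bring iron into the matrix for haem and iron-sulphur clusters. Slc25a28, the form of most tissues, had 41.5, 32.9 and 39.1 CPM in severe kidneys, against 47.2, 43.1 and 43.8 CPM in mild kidneys. Slc25a37, the form of red cell precursors, had 46.3, 46.0 and 44.2 CPM in severe kidneys, against 47.5, 50.9 and 51.6 CPM in mild kidneys. Both lay wholly below, at -0.24 ± 0.10 for Slc25a28 and -0.14 ± 0.07 for Slc25a37 (edgeR adjusted p = 0.203 and 0.269), and with library totals Slc25a37 was at 0.034. Erythroid markers summed to 51.3, 7.26 and 6.89 CPM in severe kidneys, against 4.69, 11.3 and 1.92 CPM in mild kidneys, highest in severe library 13, and their part in the Slc25a37 values was not tested. Slc25a39 had 582, 333 and 493 CPM in severe kidneys, against 554, 602 and 612 CPM in mild kidneys, and its paralogue Slc25a40 had 15.8, 15.8 and 15.2 CPM in severe kidneys, against 15.7, 15.4 and 13.7 CPM in mild kidneys. Both overlapped, Slc25a39 at -0.33 ± 0.20 and Slc25a40 at 0.07 ± 0.10. The ratio of Slc25a40 to Slc25a39 per kb was 0.0166, 0.0290 and 0.0189 in severe kidneys, against 0.0173, 0.0156 and 0.0137 in mild kidneys, a difference of 0.43 on the log2 scale with overlap (exact permutation p = 0.2).

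The 3 carriers related to uncoupling proteins did not separate the groups. Slc25a30 had 87.9, 63.4 and 70.5 CPM in severe kidneys, against 85.5, 81.4 and 93.3 CPM in mild kidneys. Slc25a14 had 5.00, 6.19 and 6.27 CPM in severe kidneys, against 4.89, 5.69 and 4.19 CPM in mild kidneys. Slc25a30 stood at -0.23 ± 0.13, Slc25a14 at 0.24 ± 0.18 and Slc25a27 at 0.30 ± 0.29. The log2 ratio of Slc25a30 to Slc25a14 was 0.48 lower in severe kidneys, with overlap (difference -0.48, exact permutation p = 0.3).

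Of the carriers with another or no settled substrate, 8 were tested and 6 had negative fold changes (49.9% of all tested genes). Slc25a45 had 38.7, 34.7 and 38.6 CPM in severe kidneys, against 45.01, 46.2 and 46.0 CPM in mild kidneys. It had the smallest unadjusted p among the lower members, and its libraries were tightly grouped, at 37.3 ± 2.25 CPM in severe and 45.7 ± 0.624 CPM in mild kidneys, at -0.29 ± 0.08 in log2 fold change (edgeR adjusted p = 0.103). Slc25a34 had 26.9, 16.9 and 30.3 CPM in severe kidneys, against 35.2, 37.2 and 37.3 CPM in mild kidneys. It lay wholly below at -0.57 ± 0.19 (edgeR adjusted p = 0.147), and without severe library 14 it was called at -0.36 (edgeR adjusted p = 0.0448). Slc25a48 and Slc25a35 overlapped at -0.37 ± 0.18 and -0.26 ± 0.15. Slc25a46, which sits in the outer membrane, Slc25a47, Slc25a53 and Slc25a43 stood between -0.08 and 0.27, all with overlap.

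The remaining 4 members had too few counts for a test. Slc25a2, an ornithine carrier, had 12 counts over the 6 libraries, Slc25a31, the adenine nucleotide translocase of male germ cells, had 8, and Slc25a41, an ATP-Mg/phosphate carrier, had 2. Slc25a54 had 0, which allows up to 3 counts in a library, or 0.169 to 0.207 CPM, for counting error only. Slc25a41 lies beside Slc25a23 on chromosome 17 and Slc25a54 beside Slc25a24 on chromosome 3, among 4 pairs of members less than 50 kb apart. Of all members, 14 share bases with a gene on the other strand, among them Slc25a11, Slc25a21, Slc25a25 and Slc25a26, whereas Slc25a24 shares none.

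The other 5 paralogue ratios overlapped between the groups. In log2 units the difference of severe minus mild was 0.11 for Slc25a37 to Slc25a28, 0.57 for Slc25a22 to Slc25a18, -0.23 for Slc25a25 to Slc25a23, -0.16 for Slc25a10 to Slc25a11 and 0.02 for Slc25a36 to Slc25a33. Exact permutation p-values lay between 0.2 and 1 for these pairs, and the adjusted p-values of all 10 ratios lay between 0.667 and 1. Slc25a24 to Slc25a23 was the pair of carriers with non-overlapping groups. This follows from Slc25a24 lying wholly above and Slc25a23 wholly below, and is no separate result. Without severe library 14 the difference was 0.20 for Slc25a40 to Slc25a39, 0.0055 for Slc25a37 to Slc25a28, -0.074 for Slc25a25 to Slc25a23, -0.046 for Slc25a10 to Slc25a11 and 0.83 for Slc25a22 to Slc25a18. Without severe library 13 these differences were 0.60, 0.17, -0.33, -0.25 and 0.36 in the same order. Slc25a37 to Slc25a28 was at 0.034 without mild library 7, Slc25a25 to Slc25a23 at -0.14 and Slc25a30 to Slc25a14 at -0.32 without mild library 9.

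Genes that work with the carriers had differences of like size, and edgeR called 0 of them, where it called 0.0134% of all tested genes. Among the family members with other names, Ucp2, an uncoupling-protein relative found in macrophages as well as epithelia, had 181, 184 and 167 CPM in severe kidneys, against 127, 140.1 and 156 CPM in mild kidneys. It lay wholly above, at 0.33 ± 0.10 (edgeR adjusted p = 0.132). Mtch2, of the outer membrane, lay wholly below at -0.22 ± 0.11, and Ucp1 and Ucp3 were not tested. Carriers enter the inner membrane through TOM and the TIM22 complex, for which 13 of 14 tested genes had negative fold changes, with a median of -0.23. Only 1 of them lay wholly below, or 7.14%, against 16.1% of all tested genes. This was Tomm40, the import pore, at -0.21 ± 0.09. Tomm5, with the smallest unadjusted p of the list, overlapped at -0.28 ± 0.11. Of the other inner-membrane transporters 6 of 14 lay wholly below, or 42.9%, against 16.1% of all tested genes. In this list 13 of 14 were negative, 4 lower and 1 higher at an unadjusted p under 0.05 (7.89% and 15.8% of all tested genes). The exception was the sideroflexin Sfxn3 at 0.38 ± 0.09 (edgeR adjusted p = 0.096), wholly above, whereas its relative Sfxn5 stood at -0.37 ± 0.12. All 8 malate-aspartate and citrate partners were negative, among them the cytosolic enzymes Mdh1 at -0.49 ± 0.21 and Got1 at -0.28 ± 0.13.

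All 5 carnitine shuttle genes were negative, with 4 wholly below, a median of -0.37, and the carnitine importer Slc22a5 at -0.46 ± 0.15. Among all tested genes 49.9% were negative and 16.1% lay wholly below. Of the 18 nuclear genes of oxidative phosphorylation 18 were negative and 14 wholly below, with a median of -0.35. All 12 tested mitochondrially encoded protein genes were negative, with a median of -0.35. Of these, 2 lay wholly below, or 16.7%, near the share over all tested genes. Of the 8 regulators of mitochondrial biogenesis 6 were negative, and the nuclear receptor Esrra stood at -0.46 ± 0.15. The 3 outer-membrane channels Vdac1, Vdac2 and Vdac3 had a median of -0.19, with 2 wholly below (16.1% of all tested genes). The 3 tested family members with other names had a median of -0.02. No difference between lists was tested.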

How the data were processed

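Poly-A RNA from whole kidneys was sequenced in 6 libraries, 3 severe and 3 mild, with total RNA taken up in TRIzol and DNase-treated, per the labels' protocols. The authors deposited 1 table of raw read counts per gene (whole numbers whose sums differ between libraries), with a gene length beside them. HTSeq 0.6.1, TopHat2 2.0.12, Bowtie2 2.2.3 and mm10 are listed, per the submitters' processing notes. What each tool did, whether strand was used and which annotation was counted is not given in the sources used here. Groups were read from the column names, whose numbers fit no sample title, and columns were not paired.

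Counts were filtered with filterByExpr and tested with edgeR 4.0.16 (TMM, robust quasi-likelihood F test, R 4.3.3), with Benjamini-Hochberg adjustment over 14883 genes and a threshold of 0.05. SE was taken as log2 fold change over the square root of F. TMM factors were 0.974, 1.17 and 1.04 in severe libraries 13, 14 and 15, and 0.943 to 0.945 in mild libraries. Chi-square per degree of freedom between replicates was 15.3 to 77.1 in severe and 3.82 to 5.58 in mild kidneys, above sampling noise, so each library counted once. The floor of 3 counts covers counting error only.

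The deposited gene length equals a GENCODE M21 transcript length for 33 of the 47 members and was used as it stands for levels per kb. Paralogue log2 ratios used a prior count of 2 and exact permutation over 20 assignments. Promoter windows matched 36 members by symbol. Alternatives were other scalings and filters, DESeq2 1.42.0, limma-voom (limma 3.58.1) with and without quality weights, non-robust dispersion and each library left out. The code was tested on simulated data. Members, gene lists and tests were chosen with earlier results of these data known. Values in every library are printed for the 8 members with the smallest p, the 8 with the highest level, members of the paralogue ratios, and Slc25a3, Slc25a20, Slc25a1, Slc25a51 and Slc25a42. The values of 1 member are not reported here, though it enters the counts and medians. Partner genes are up to 3 per list with the smallest p, and the Vdac genes are a whole list.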

Additional observations from a re-analysis of the deposited data

How the results depend on the processing

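The median of the members stayed below 0 under all 15 alternatives, between -0.35 (without severe library 13) and -0.08 (library totals). Of 464 values of the 31 named members under alternatives, 419 kept direction and side of the threshold, 39 gained a call and 6 reversed. No member was called in the main fit, so none could lose a call. This count also leaves out size: without severe library 14, 30 of the 43 members were smaller by more than 1.5 times or reversed. With library totals, 3 members lay wholly above (29.2% of all genes), 10 wholly below (6.61%) and 3 were lower at an unadjusted p under 0.05 (2.43%), and Slc25a37 (0.034), Slc25a36 (0.045), Slc25a1 (0.017) and Slc25a33 (0.022) turned positive while the median of all genes was 0.17. DESeq2 called 1 member higher (7.19% of all genes it adjusted). Quality weights called 1 higher (18.2%) and 25 lower (15.7%), with 27 lower at an unadjusted p under 0.05 (21.7%). With each library left out in turn, 0 to 1 members were called higher (0 to 13.8% of all genes) and 0 to 14 lower (0 to 7.74%). At an unadjusted p under 0.05, 1 to 2 were then higher (11.0 to 21.1%) and 2 to 26 lower (2.88 to 17.3%), and 1 to 3 lay wholly above (20.1 to 29.7%) and 21 to 32 wholly below (18.9 to 26.8%). In the same fits Slc25a33 ranged from -0.33 to 0.080, positive when severe library 14 or mild library 8 was left out (0.043 for the second). The log2 ratio differences ranged from -0.034 to 0.11 for Slc25a4 to Slc25a5 and from -0.11 to 0.011 for Slc25a13 to Slc25a12, both turning without severe library 14. For Slc25a36 to Slc25a33 they ranged from -0.18 to 0.22, below 0 when severe library 14 or mild library 8 was left out (-0.10 for the second). The other 7 ratios kept their direction, though leaving out severe library 13 or 14 moved 6 of them by over 1.5 times. The cause of these changes was not tested. No paired analysis was possible because the groups share no replicate number. Depth limits Slc25a18 and the 4 untested members.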

Other observations

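The upstream windows of the family were searched for letters known from promoters. RefSeq windows of 250 bases were at hand for 36 of the 47 members, 46 windows in all, since a gene can have several starts. A GC box (GGGCGG) lay on either strand in 32 of 46 windows, or 69.57%, against 32.74% of all 32851 windows. A CCAAT box lay in 21 of 46, or 45.65%, against 33.85% of all windows. The E-box CACGTG lay in 8 of 46, or 17.39%, against 6.021% of all windows. The site of the respiratory factor Nrf1 lay in 2 of 46, or 4.348%, against 3.738% of all windows. The letters AAGGTCA, read by receptors such as Esrra, lay in 1 of 46 windows, against 4.079% of all windows. TATAAA lay in 2 of 46 windows, against 12.37% of all windows. The cAMP response element TGACGTCA lay in 2 of 46, or 4.348%, against 1.546% of all windows. The AP-1 site TGANTCA, with N for any base, lay in 2 of 46, or 4.348%, against 6.749% of all windows. A gene with several starts was counted once for each window, and no test was made. Windows of the same gene can overlap, so the same letters could count more than once, as CACGTG of Slc25a14 did.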
